A study of Mus musculus with 32 samples.

Results

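Homeostatic microglia genes, a set of 9 that are expressed by resting microglia, were taken by symbol from the 33000 genes of the count table, namely P2ry12, Tmem119, Siglech, Gpr34, Fcrls, Cx3cr1, Csf1r, Aif1 and Selplg. The question was whether the number or the state of microglia differs in a cortex where astrocytes release interleukin 6 (IL6). RNA came from the frontal cortex of C57BL/6 mice aged 3 months. One genotype was wild type (WT), and the other was homozygous for the GFAP-IL6 transgene, in which Il6 is driven by the promoter of Gfap, an astrocyte gene. No other treatment was given to either. Libraries were made by 3'Pool-seq, which primes reverse transcription at the poly(A) tail with an indexed oligo-dT, pools the samples and sequences the 3' ends. Each genotype had 4 replicates at each of 4 inputs to reverse transcription, 50, 10, 1 and 0.5 ng of total RNA, giving 32 libraries. Levels are CPM, the counts of a gene scaled to an equal total in every library and not to transcript length, so levels are compared between samples and not between genes.

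Microglia are the resident macrophages of brain tissue. In the resting state they depend on the receptor Csf1r, which binds CSF1 and IL34, and they carry sensors such as the purine receptor P2ry12 and the fractalkine receptor Cx3cr1. P2ry12, Tmem119, Siglech, Gpr34 and Fcrls are largely restricted to microglia within the brain, and several of them are known to fall when microglia become activated, whereas Csf1r, Cx3cr1, Aif1 and Selplg are shared with other macrophages or leukocytes. Aif1 encodes IBA1, the calcium-binding protein used to stain microglia, and it is known to rise on activation. The transcription factor PU.1, encoded by Spi1, is needed to make the lineage, and IL6 signals through STAT3.

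The promoters of the genes were searched for the letters that PU.1 and STAT factors are known to bind. Of the 9 genes, 5 (P2ry12, Siglech, Fcrls, Cx3cr1 and Aif1) had an entry in the RefSeq promoter table of GRCm38.p6, which holds 300 bases around each start site. The PU.1 core GAGGAA, sought on both strands, stood in the windows of Siglech, Fcrls and Aif1, and in 28.3% of all 32851 promoters of the same length. The STAT motif TTCNNNGAA stood in the window of Siglech alone among the 5 and in 8.30% of all promoters. The stretches that hold these matches follow, written 5′ to 3′ on the gene's strand, with the motif in capitals.
Siglech, PU.1 core read on the opposite strand, starting 4 bases before the start site, chr7:55768168-55768197 (+): tgctgtccctagTTCCTCttctgtgagctg
Fcrls, PU.1 core on the gene's strand, 144 bases before the start site, chr3:87263651-87263680 (-): caagtctgtaaaGAGGAAggacgtttgctt
Aif1, PU.1 core read on the opposite strand, 7 bases before the start site, chr17:35176042-35176071 (-): ataggcacccagTTCCTCcatcctattgtt
Siglech, STAT motif, 123 bases before the start site, chr7:55768051-55768080 (+): acagcctttaTTCTCTGAAccacacccaca
Distances are from the RefSeq start site. The GENCODE spans given below begin further upstream for Siglech, Fcrls and Aif1, so their PU.1 letters lie inside those spans. A match is a run of letters and was not tested as a binding site. The PU.1 letters stood close to the RefSeq start site in Siglech and in Aif1, and a link between the letters and the genotype difference of a gene was not tested.

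All 9 genes were found once in the table and all passed the filter on low counts at every input. In the GENCODE annotation of GRCm38, Aif1 lies on chromosome 17 (35170991 to 35176068), Fcrls on chromosome 3 (87250758 to 87263738), Siglech on chromosome 7 (55768178 to 55778925), and Tmem119 (113793729 to 113800516) and Selplg (113818536 to 113832644) close together on chromosome 5, none of them overlapping another gene. P2ry12 on chromosome 3 (59216272 to 59262871) overlaps Med12l on the other strand, Gpr34 on chromosome X (13632089 to 13640858) overlaps Cask on the other strand, and Csf1r on chromosome 18 (61100598 to 61132149) overlaps Hmgxb3 on the other strand and Mir6983 on its own. The model of Cx3cr1 on chromosome 9 (119901616 to 120069879) overlaps 9 genes, among them Gorasp1, Csrnp1 and Xirp1 on the same strand. These are spans of whole genes, from a later GENCODE release than the one the authors counted with. Overlap of exons was not checked. Whether strand was used in counting was not stated, so the counts of these 4 genes may be less certain than those of the other 5.

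Library totals ran from 261378 to 9840302 counts, and the 9 genes had 21 to 477 counts per library at 50 ng and 15 to 645 at 10 ng, which came down to 1 to 222 and 0 to 199 for inputs of 1 and 0.5 ng. Il6 had 4 to 22 counts in the GFAP-IL6 libraries and 0 or 1 in WT at 50 ng, and 2 to 41 against 0 to 3 at 10 ng. At 1 ng it had 13 counts in the library labelled WT replicate 3 and 0 in the libraries labelled GFAP-IL6 replicates 2 and 3, and at 0.5 ng it was 0 in all 8, so it checks the labels at the upper inputs only. The spread between replicates, as edgeR's common biological coefficient of variation, grew from 0.214 and 0.238 at 50 and 10 ng to 0.519 and 0.767 at 1 and 0.5 ng, and leaving out GFAP-IL6 replicate 4 brought the value at 50 ng to 0.130. A list of 4 cortical neuron markers, Slc17a7 and Neurod6 among them, was measured in both genotypes at 50 ng, with 0 of 4 called and a summed level of 395 to 423 CPM in WT and 394 to 436 CPM in GFAP-IL6. Ttr, a choroid plexus gene, ran from 52.7 to 3355 CPM among the WT libraries at 50 ng and from 61.8 to 335 CPM in GFAP-IL6, with a log2 fold change of -2.41 (edgeR, adjusted p = 0.653). Without WT replicate 3 the sign turned, to 1.08 at 50 ng and, from -2.57 with all libraries, to 1.05 at 10 ng. Ttr was the one tested marker of 4 for choroid plexus and striatum, and its part in the results was not tested.

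At the 2 upper inputs the 9 genes did not move together. The mean level of Aif1 was 1.97 times as high in GFAP-IL6 as in WT cortex at 50 ng and 1.86 times at 10 ng, and Aif1 rose past the threshold of the test at 10 ng. Csf1r, Fcrls and Cx3cr1 had estimates between 0.45 and 0.72 on the log2 scale at both inputs without passing the adjusted threshold, Tmem119 had 0.30 and 0.74, and P2ry12, Siglech, Selplg and Gpr34 had estimates between -0.21 and 0.35. In bulk tissue, a change in the number of microglia and a change in the RNA of each microglial cell cannot be told apart.

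Aif1 in the WT libraries at 50 ng was 44.3, 35.4, 41.2 and 37.5 CPM, and in the GFAP-IL6 libraries 88.1, 62.5, 109.7 and 50.9 CPM. Every GFAP-IL6 library was above every WT library, with replicate 4 the lowest of its group. At 10 ng Aif1 was 44.2, 34.3, 54.1 and 31.1 CPM in WT and 74.8, 67.6, 96.8 and 65.5 CPM in GFAP-IL6. Again the groups did not overlap. The means were 39.6 ± 3.94 against 77.8 ± 26.4 CPM at 50 ng and 40.9 ± 10.4 against 76.2 ± 14.3 CPM at 10 ng (SD, n = 4 per genotype). In edgeR's quasi-likelihood test the log2 fold change was 0.94 (SE 0.215, 95% interval 0.49 to 1.38, adjusted p = 0.0865) at 50 ng and 0.87 (SE 0.190, 95% interval 0.49 to 1.26, adjusted p = 0.0238) at 10 ng. The exact permutation test of the CPM gave p = 0.0286 at each input, the smallest that 4 against 4 allows. Without GFAP-IL6 replicate 4 at 50 ng, Aif1 had a log2 fold change of 1.15 and passed the test (edgeR, adjusted p = 2.48e-05), as it did on no other omission at that input. At 10 ng the call was lost on leaving out any of WT replicates 1, 2 and 4 or GFAP-IL6 replicates 1 and 3 (edgeR, adjusted p from 0.0517 to 0.211), with the log2 fold change between 0.75 and 0.99 over all 8 omissions.

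Csf1r, the receptor on which microglial survival depends, was 34.9, 42.1, 33.4 and 33.3 CPM in WT at 50 ng and 62.9, 32.7, 61.8 and 59.3 CPM in GFAP-IL6. The other three GFAP-IL6 libraries stood above WT, and replicate 2 lay below all 4 WT libraries. At 10 ng it was 35.0, 34.3, 29.8 and 33.9 CPM in WT and 56.4, 55.4, 58.3 and 50.5 CPM in GFAP-IL6. Here both groups were tight and did not overlap (33.2 ± 2.33 against 55.1 ± 3.32 CPM, SD, n = 4). The log2 fold change was 0.60 (SE 0.207, adjusted p = 0.617) at 50 ng and 0.70 (SE 0.193, adjusted p = 0.156) at 10 ng by edgeR, with 95% intervals of 0.17 to 1.03 and 0.31 to 1.09.

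P2ry12, the purine receptor through which resting microglia sense injury, was 70.01, 76.0, 59.0 and 63.3 CPM in WT at 50 ng and 66.9, 57.8, 75.4 and 38.0 CPM in GFAP-IL6. The groups overlapped, with GFAP-IL6 replicate 4 the lowest of all. At 10 ng it was 49.6, 66.7, 59.4 and 58.8 CPM in WT and 49.96, 44.2, 86.1 and 44.5 CPM in GFAP-IL6, where replicate 3 was the highest of the 8 libraries. The means were 67.1 ± 7.47 against 59.5 ± 16.05 CPM and 58.6 ± 7.02 against 56.2 ± 20.1 CPM (SD, n = 4). The log2 fold change was -0.21 (95% interval -0.63 to 0.22) at 50 ng and -0.08 (95% interval -0.48 to 0.33) at 10 ng. Without GFAP-IL6 replicate 4 both estimates turned just above 0, to 0.01 and 0.04.

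**Figure D1:**
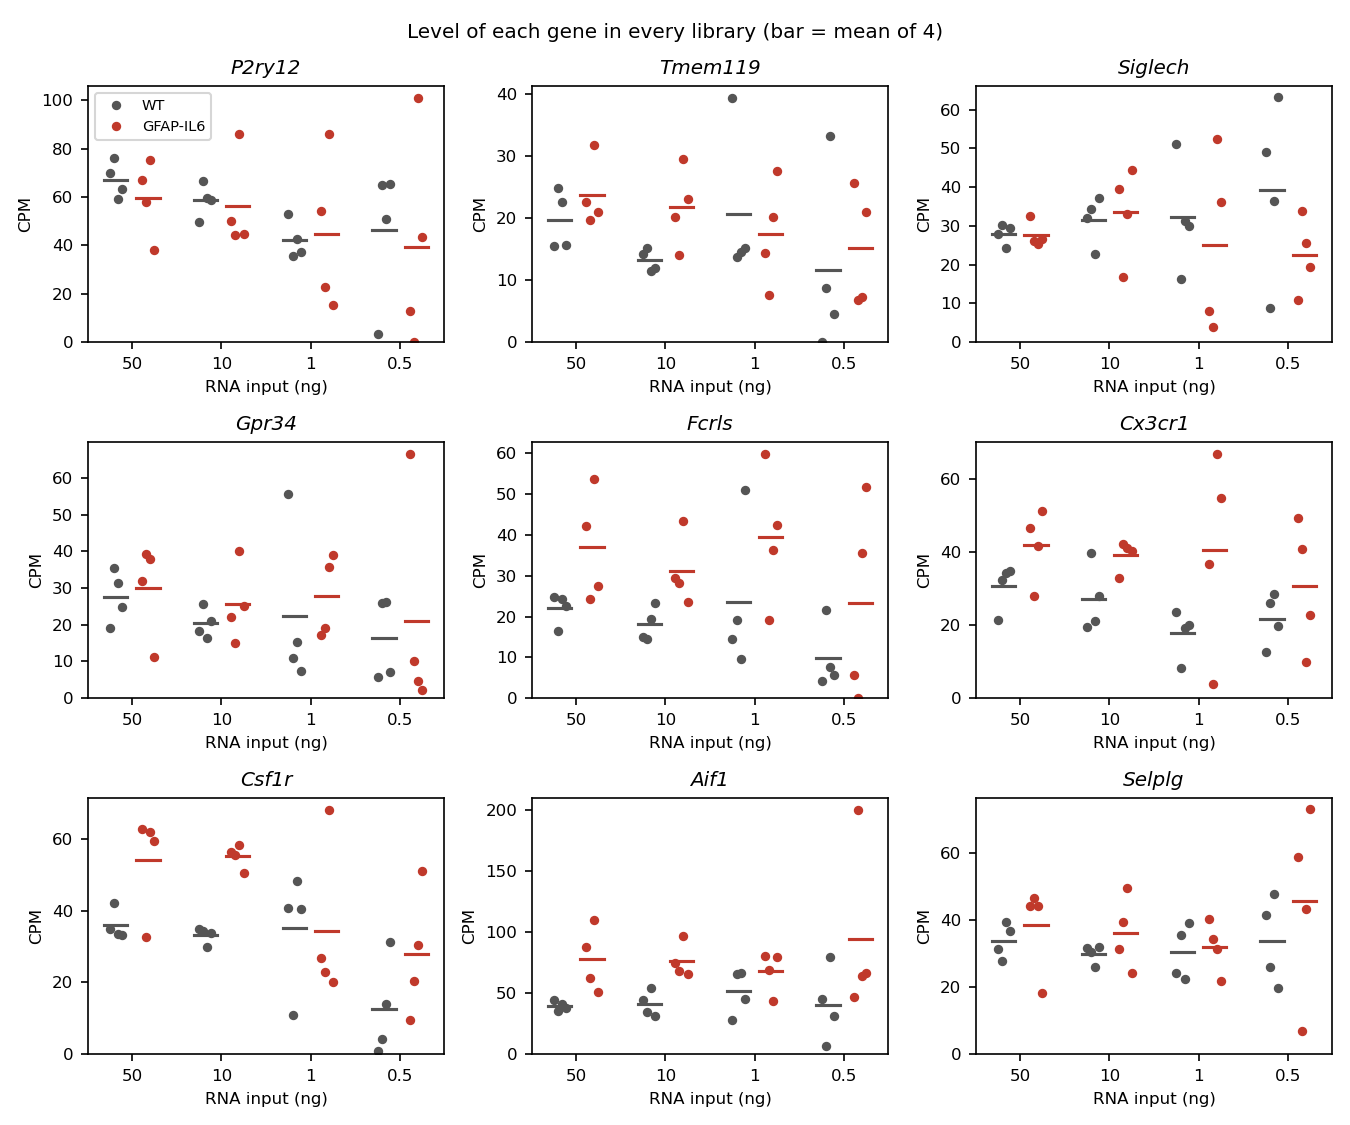
Level of each of the 9 genes in every library, in CPM, against RNA input in ng, with a point for each library (WT grey, GFAP-IL6 red) and a bar for the mean of 4. Aif1 at 50 and 10 ng and Csf1r and Fcrls at 10 ng show GFAP-IL6 points all above the WT points, P2ry12 and Siglech overlap at every input, and the points spread widely at 1 and 0.5 ng.

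Fcrls, an Fc receptor-like gene that in the brain marks microglia and not infiltrating monocytes, was 24.9, 16.5, 24.2 and 22.6 CPM in WT at 50 ng and 42.3, 24.3, 53.7 and 27.6 CPM in GFAP-IL6. Replicates 1 and 3 of GFAP-IL6 were high and the other two close to WT. At 10 ng it was 14.5 to 23.4 CPM in WT and 23.6 to 43.4 CPM in GFAP-IL6, without overlap. The log2 fold change was 0.71 (SE 0.238, adjusted p = 0.592) at 50 ng and 0.72 (SE 0.251, adjusted p = 0.434) at 10 ng by edgeR. Leaving out GFAP-IL6 replicate 4 at 50 ng brought it to 0.88 and past the threshold (edgeR, adjusted p = 0.0185).

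Cx3cr1, the receptor for the neuronal ligand fractalkine, had a mean of 30.7 ± 6.35 CPM in WT and 41.9 ± 10.003 CPM in GFAP-IL6 at 50 ng, and 27.1 ± 9.12 against 39.1 ± 4.31 CPM at 10 ng (SD, n = 4). In GFAP-IL6, 3 of 4 libraries exceeded all WT libraries at each input. The log2 fold change was 0.45 (SE 0.218, adjusted p = 0.835) and 0.52 (SE 0.236, adjusted p = 0.623) by edgeR. Tmem119, a membrane protein used as a microglia-specific stain, had a mean of 19.6 ± 4.77 against 23.7 ± 5.52 CPM at 50 ng and 13.2 ± 1.83 against 21.7 ± 6.41 CPM at 10 ng. Its log2 fold change was 0.30 (95% interval -0.20 to 0.79) at 50 ng and 0.74 (95% interval 0.18 to 1.31) at 10 ng (edgeR, adjusted p = 0.837 and 0.497).

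Siglech, a sialic acid-binding lectin, was nearly level, at 27.9 ± 2.63 CPM in WT and 27.7 ± 3.24 CPM in GFAP-IL6 at 50 ng and 31.6 ± 6.22 against 33.5 ± 11.99 CPM at 10 ng (SD, n = 4). The 95% interval of its log2 fold change was -0.47 to 0.38 at 50 ng and -0.38 to 0.60 at 10 ng. Gpr34, a lysophosphatidylserine receptor, had intervals of -0.56 to 0.68 and -0.19 to 0.89. Selplg, the ligand of P-selectin, had -0.42 to 0.61 and -0.25 to 0.68. Both Gpr34 (11.3 CPM) and Selplg (18.3 CPM) were lowest at 50 ng in GFAP-IL6 replicate 4, against 31.9 to 39.2 and 44.3 to 46.6 CPM in the other three GFAP-IL6 libraries.

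Counted together, 0 of the 9 genes passed the adjusted threshold at 50 ng by edgeR (0.28% of all 11773 tested genes did), 3 had an unadjusted p under 0.05 (5.63% of all genes), all 3 higher (4.13% of all genes), and DESeq2 called 1, Aif1 (45 of all 14356 genes). At 10 ng 1 of 9 passed by edgeR (0.332% of 12043 genes), 5 had an unadjusted p under 0.05 (7.48% of all genes), all 5 higher (4.72% of all genes), and DESeq2 called 2, Aif1 and Csf1r (58 of all 15305 genes). All GFAP-IL6 libraries lay above all WT libraries for 1 of 9 genes at 50 ng (2.17% of all genes) and for 3 of 9 at 10 ng (2.77% of all genes). The log2 fold change was above 0 for 7 and 8 of the 9, against 49.6% and 50.4% of all genes, and its median was 0.30 and 0.52, against 0.00 over all genes at both inputs. The median was 0.06 and 0.35 for the 5 microglia-restricted genes and 0.52 and 0.61 for the 4 that other macrophages or leukocytes share. The summed level of the 9 genes was 304 ± 13.6 CPM in WT and 390.2 ± 83.5 CPM in GFAP-IL6 at 50 ng, and 273 ± 16.8 against 375 ± 70.2 CPM at 10 ng (SD, n = 4).

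The titles number the libraries 1 to 4 alike at every input, and when same-numbered libraries of a genotype were summed over the 4 inputs, Aif1 was the 1 of 9 that passed (log2 fold change 0.87, SE 0.160, edgeR, adjusted p = 0.00435, with 0.468% of 13450 genes called), and 4 of 9 had an unadjusted p under 0.05 (7.9% of all genes). It passed on leaving out any of the 8 summed libraries, with an adjusted p of at most 0.0422. Fcrls (0.77, adjusted p = 0.122), Csf1r (0.56, adjusted p = 0.191) and Cx3cr1 (0.53, adjusted p = 0.402) followed, and P2ry12 stood at -0.13 (95% interval -0.52 to 0.25). Leaving out a summed library moved P2ry12 between -0.42 without GFAP-IL6 replicate 3 (unadjusted p = 0.0269, edgeR, adjusted p = 0.458) and 0.0060 without GFAP-IL6 replicate 4. The sum adds depth to the same 8 numbered samples and no new replicates, and the labels do not state that a number marks the same RNA.

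**Figure D2:**
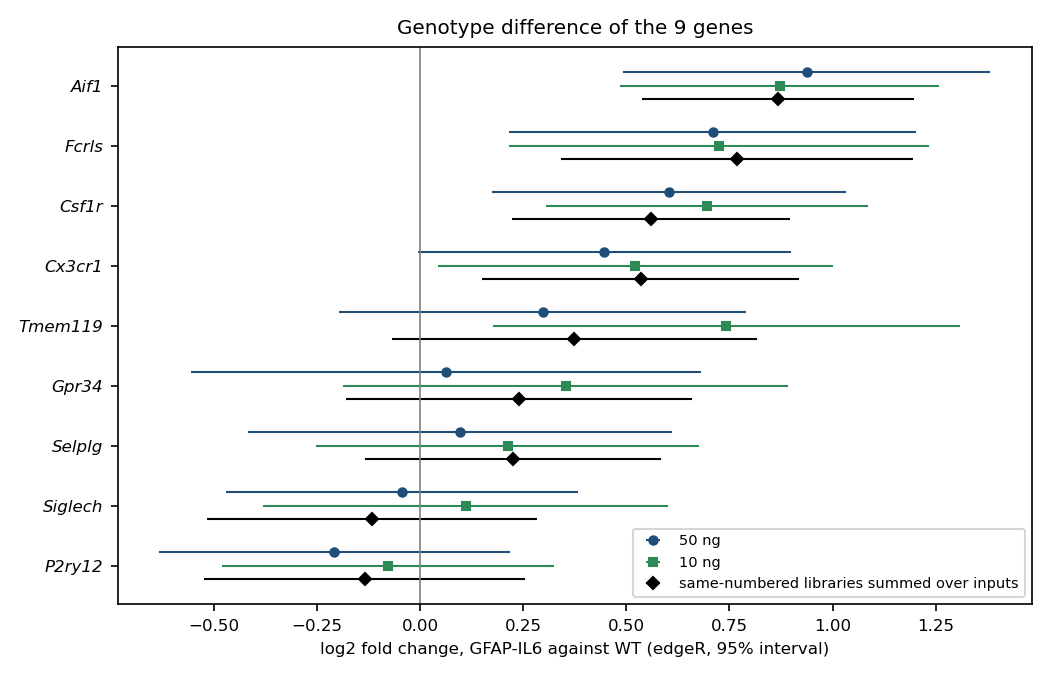
Log2 fold change of GFAP-IL6 against WT for each of the 9 genes with its 95% interval from edgeR, at 50 ng (circles), at 10 ng (squares) and with same-numbered libraries summed over inputs (diamonds), 4 against 4 in each. Aif1, Fcrls and Csf1r have intervals above 0 in all 3 fits, and Siglech and P2ry12 lie closest to or below 0.

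To set a restricted gene against a shared one within a library, the log2 ratio of P2ry12 to Csf1r (CPM plus 1) was taken. At 50 ng it was 0.99, 0.84, 0.80 and 0.91 in WT and 0.09, 0.81, 0.28 and -0.63 in GFAP-IL6. The difference of the means was -0.75 (0.88 ± 0.08 against 0.14 ± 0.59, SD, n = 4, exact permutation p = 0.0571). At 10 ng it was 0.49, 0.94, 0.97 and 0.78 in WT and -0.17, -0.32, 0.55 and -0.18 in GFAP-IL6, with a difference of -0.82 (0.79 ± 0.22 against -0.03 ± 0.39, exact permutation p = 0.0571). Of the GFAP-IL6 libraries, 3 of 4 lay below all WT libraries at each input, and the other, replicate 2 at 50 ng and replicate 3 at 10 ng, lay among them. Neither difference passed 0.05, although the smallest p that 4 against 4 allows in this test is 0.0286. Over the 8 omissions of 1 library the difference ran from -0.97 to -0.49 at 50 ng, the latter without GFAP-IL6 replicate 4, and from -1.02 to -0.73 at 10 ng. This is 1 of the 20 pairs of a restricted and a shared gene, and the choice of pair matters. The difference in mean log2 ratio was below 0 for 16 of the 20 pairs at 50 ng, between -1.11 for P2ry12 to Aif1 and 0.56 for Fcrls to Selplg. At 10 ng it was below 0 for 14 of the 20, between -1.01 and 0.52 for these same pairs. Fcrls to Csf1r was at 0.13 and 0.03 and Tmem119 to Csf1r at -0.27 and -0.07, so the ratio to Csf1r was not low in GFAP-IL6 for every restricted gene. The pairs share their genes and libraries, so the counts over pairs are a description, with no test.

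**Figure D3:**
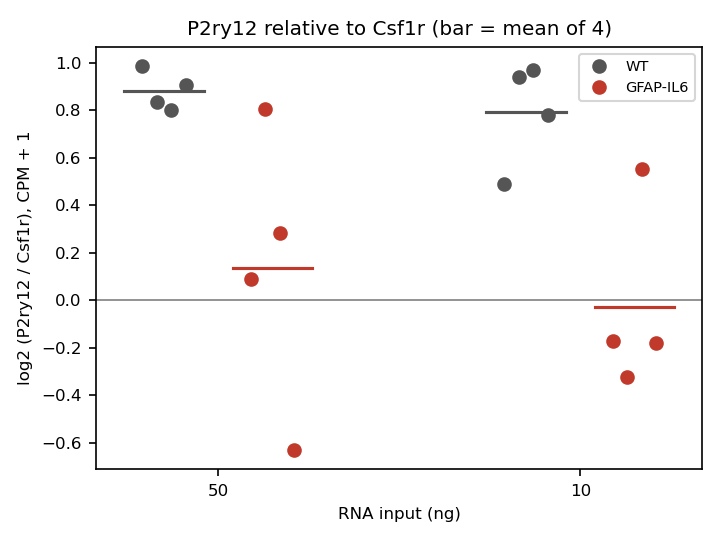
Log2 ratio of P2ry12 to Csf1r (CPM plus 1) in each library at 50 and 10 ng, WT in grey and GFAP-IL6 in red, with bars at the mean of 4. The WT points sit between 0.49 and 0.99, and 3 of 4 GFAP-IL6 points at each input sit below them.

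Other gene lists place the 9 genes among the microglial transcripts. Of 15 pan-myeloid genes, which are expressed by macrophages and microglia alike, 8 rose at 50 ng and 8 at 10 ng (0.28% and 0.299% of all genes) and none fell, with a median log2 fold change of 1.11 at both inputs and all 15 estimates above 0. Ctss, a lysosomal protease, went from 178 ± 17.9 to 519 ± 191 CPM at 50 ng and from 159 ± 15.97 to 546 ± 114 CPM at 10 ng (SD, n = 4). Its log2 fold change was 1.495 (edgeR, adjusted p = 0.00126) and 1.75 (edgeR, adjusted p = 1.76e-10). Ly86, a partner of a Toll-like receptor homologue, had 1.52 (edgeR, adjusted p = 0.00126) and 1.46 (edgeR, adjusted p = 7.29e-07). Itgam, the integrin CD11b, and Ptprc, the leukocyte phosphatase CD45, had 2.26 and 2.69 at 50 ng (edgeR, adjusted p = 0.000614 and 0.00227), and 1.38 and 1.76 at 10 ng without passing (edgeR, adjusted p = 0.0606 and 0.103). In WT at 50 ng Ptprc rested on 3 to 6 counts per library, so it passed the filter there through the GFAP-IL6 libraries alone. Over the 8 omissions of 1 library, 3 to 12 of the 15 were called at 50 ng and 6 to 9 at 10 ng. The 12 came without GFAP-IL6 replicate 4, where 78 of all 11934 genes were called (0.654%), against 11 to 23 genes over the other 7 omissions, which called 3 to 7 of the 15. Ctss, Ly86 and Itgam were called at 50 ng on each of the 8 omissions. Ptprc was called on 7, the exception being WT replicate 4 (edgeR, adjusted p = 0.0642). Given how Ptprc passed the filter, these 7 calls are no separate support.

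In a second list of 15 homeostatic microglia genes, 0 of 14 tested were called at either input by edgeR or DESeq2. At each input 5 had an unadjusted p under 0.05 by edgeR (5.63% and 7.48% of all genes), and the median log2 fold change was 0.51 and 0.49. Rgs10, a regulator of G protein signalling, had 0.03 and 0.21. Lair1, an inhibitory collagen receptor named after its values were seen, had 0.98 and 1.25 (edgeR, adjusted p = 0.116 and 0.0898) with no overlap between genotypes at either input. Of the 15 genes, 3 had no overlap, in either direction, at each input. All GFAP-IL6 libraries lay above all WT libraries for 2.17% and 2.77% of all genes. Over the 8 omissions 0 were called at 10 ng, and at 50 ng 0 were called on 7 and 2, Lair1 among them, without GFAP-IL6 replicate 4 (0.654% of all genes).

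Of 17 genes known to mark activated microglia, 0 of 11 tested were called at 50 ng by edgeR (0.28% of all genes). There 3 had an unadjusted p under 0.05 (5.63% of all genes), and DESeq2 called 1 (45 of all 14356 genes). At 10 ng 2 of 12 were called by edgeR (0.332% of all genes). The 2 were Cd52, a small surface glycoprotein (8.70 ± 3.01 against 27.1 ± 5.62 CPM at 10 ng, log2 fold change 1.58, edgeR, adjusted p = 0.00165), and Cst7, a cystatin that inhibits cathepsins (edgeR, adjusted p = 0.000123). Cst7 at 10 ng had 0 to 2 counts in each WT library and 7 to 62 in each GFAP-IL6 library, so it passed the filter through the GFAP-IL6 libraries alone. At 50 ng, with 0 to 6 counts in WT, it was not tested by edgeR with all libraries. At 1 ng it had 0 to 7 counts in WT and 0 to 46 in GFAP-IL6, and at 0.5 ng every GFAP-IL6 library had 0. Cd52 and Cst7 were called at 10 ng on each of the 8 omissions, which for Cst7 is no separate support. At 50 ng 0 were called on 7 of the omissions, and 4 of 12, namely Cd52, Cd9, Cst7 and Ctsz, without GFAP-IL6 replicate 4 (0.654% of all genes). On that omission too Cst7 passed the filter through the GFAP-IL6 libraries alone, so its call there is no separate support. Apoe and other members of this list are also made by astrocytes.

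The ligands of Cx3cr1 and Csf1r did not pass the test at 50 or 10 ng. They were looked up for that role, outside the rule for named genes. Cx3cl1, the ligand of Cx3cr1, had 528 ± 29.5 CPM in WT and 517 ± 36.8 CPM in GFAP-IL6 at 50 ng (log2 fold change -0.07, SE 0.148), and Il34, a ligand of Csf1r, had 19.1 ± 1.49 against 20.7 ± 5.78 CPM (0.04, SE 0.243). Csf1, the other ligand of Csf1r, was at 3.88 ± 1.18 against 5.24 ± 2.34 CPM (0.46, SE 0.423). Among all 12 ligands and regulators, 0 of 8 tested were called at 50 ng by edgeR and 1 of 9 at 10 ng (0.28% and 0.332% of all genes). At 50 ng 3 had an unadjusted p under 0.05 by edgeR (5.63% of all genes), and DESeq2 called 1 (45 of all 14356 genes). At 10 ng 0 were called without WT replicates 1, 2 or 3 or GFAP-IL6 replicates 2 or 4, and at 50 ng 0 on any omission.

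**Figure D4:**
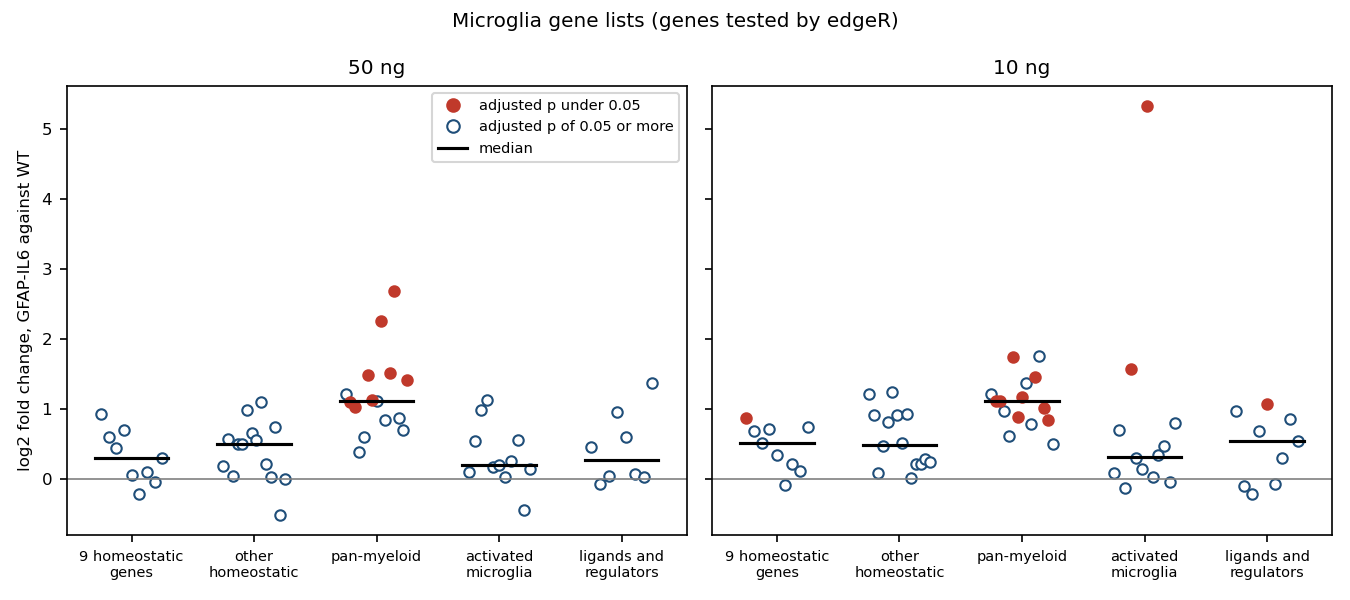
Log2 fold change of GFAP-IL6 against WT at 50 ng (left) and 10 ng (right) for every tested gene of 5 lists, filled red where the edgeR adjusted p was under 0.05, open otherwise, with a line at the list median. Medians were 0.30 and 0.52 for the 9 genes, 0.51 and 0.49 for other homeostatic genes, and 1.11 at both inputs for pan-myeloid genes, and the highest point at 10 ng is Cst7, whose 4 WT libraries hold 0 to 2 counts each.

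Markers of other leukocytes were measured in the same libraries. The summed level of 8 border macrophage markers at 50 ng was at most 21.1 CPM in WT and 22.4 CPM in GFAP-IL6, with none of the 8 at 0 throughout a genotype. The 1 marker of that list tested by edgeR, Pf4, had a log2 fold change of -0.34 at 50 ng and 0.10 at 10 ng. Mrc1 was at 2.45 ± 1.91 against 1.56 ± 1.09 CPM at 50 ng. By DESeq2, 4 of 7 tested at 50 ng and 5 of 8 at 10 ng had estimates above 0, with 0 called. Of 7 monocyte markers, 2 were tested and 1, Lyz2, was called at both inputs (0.28% and 0.332% of all genes), at 19.1 ± 3.29 against 51.0 ± 17.1 CPM at 50 ng (log2 fold change 1.38, edgeR, adjusted p = 0.0120) and with 1.52 at 10 ng (edgeR, adjusted p = 0.000176). At 50 ng Lyz2 was called on 3 of the 8 omissions, and not without WT replicates 1, 2 or 4 or GFAP-IL6 replicates 1 or 3 (edgeR, adjusted p from 0.0506 to 0.1001), while at 10 ng it was called on each of the 8. Lyz2, the lysozyme gene, is also expressed by activated microglia. The 7 markers summed to 20.8 to 28.9 CPM in WT and 38.4 to 74.5 CPM in GFAP-IL6 at 50 ng, with 1 of the 7 at 0 in each genotype. Lyz2 made up most of these sums. Vcan, the other marker tested, had a log2 fold change of 0.60 at 50 ng and 0.42 at 10 ng without passing (edgeR, adjusted p = 0.835 and 0.882). The 5 neutrophil markers summed to at most 8.99 CPM in any library at 50 ng, and the 9 lymphocyte markers, none of them tested, to at most 1.84 CPM, with 7 of the 9 at 0 throughout WT and 5 of the 9 throughout GFAP-IL6. Of 11 proliferation genes 3 were tested and 0 called at 50 and 10 ng by edgeR or DESeq2, none with an unadjusted p under 0.05 by edgeR, and Pcna, a clamp of the replication fork, was at 27.3 ± 1.39 against 23.6 ± 6.05 CPM and Mcm5, a helicase subunit, at 3.07 ± 0.232 against 4.05 ± 1.64 CPM at 50 ng. What part cells other than microglia had in the levels of Aif1, Csf1r, Cx3cr1 and Selplg was not tested.

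At 1 and 0.5 ng none of the 9 genes was called by edgeR or DESeq2 (0.0323% of 9276 and 0.0117% of 8571 genes were called by edgeR), and none had an unadjusted p under 0.05 by edgeR (3.59% and 2.87% of all genes). Aif1 was at 51.4 ± 18.3 CPM in WT and 68.1 ± 17.2 CPM in GFAP-IL6 at 1 ng, and at 40.5 ± 30.5 against 94.4 ± 71.0 CPM at 0.5 ng (SD, n = 4). Its log2 fold change was 0.43 (95% interval -0.40 to 1.26) and 1.15 (95% interval -0.22 to 2.52). P2ry12 had 0.08 (95% interval -0.96 to 1.11) and -0.23 (95% interval -2.23 to 1.76). Among the 9 genes the largest estimate at 1 ng was that of Cx3cr1, at 1.18 (95% interval -0.09 to 2.46), and at 0.5 ng that of Fcrls, at 1.30 (95% interval -1.31 to 3.90). Both intervals of Aif1 included 0 and also its estimate of 0.87 at 10 ng. The median coefficient of variation of the 9 genes within a group was 23.6% and 21.5% for inputs of 50 and 10 ng and 45.7% and 66.5% for inputs of 1 and 0.5 ng, against 21.9%, 23.5%, 44.6% and 59.5% over all tested genes in the same order. Of 72 values at each input, 3 were 0 at 0.5 ng and none at the other inputs.

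The genotype effect did not differ detectably between inputs for any of the 9 genes. In the test of the interaction of genotype with input against 50 ng, 0 of 9 were called at 10, 1 or 0.5 ng by edgeR or limma, none had an unadjusted p under 0.05 by edgeR, 0% of all genes were called, and 1.38%, 4.17% and 6.65% of all genes had an unadjusted p under 0.05. For Aif1 the interaction at 10 ng was -0.08 on the log2 scale (95% interval -0.67 to 0.51) and at 0.5 ng 0.14 (95% interval -1.28 to 1.55). The level averaged over genotypes was not called as dependent on input either, with 0 of 9 called at each lower input by edgeR or limma, in fits that take same-numbered libraries of different inputs as independent, while 0%, 1.2% and 2.55% of all genes were called by edgeR at 10, 1 and 0.5 ng. An unadjusted p under 0.05, which 4.15%, 11.9% and 13.8% of all genes had, was seen among the 9 for Csf1r alone, with a log2 change of -1.11 at 0.5 ng against 50 ng (SE 0.467, edgeR, adjusted p = 0.266).

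Among the genes whose pattern was most like that of the 9 genes summed, over the 8 libraries at 50 ng, were Stard5 (Pearson r = 0.981), Slc38a5 (0.953), Ecscr (0.947) and Tspo (0.944), out of 11611 compared. The points share 2 genotypes of 4 libraries each, so these values describe the libraries. Stard5 binds lipids, Slc38a5 carries amino acids, Ecscr is an endothelial surface protein, and Tspo is a mitochondrial protein imaged as a marker of neuroinflammation. At 10 ng the values were 0.918 for Slc38a5, 0.813 for Tspo and 0.780 for Ecscr, whereas Stard5 was at 0.178 and ranked 4294th.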

How the data were processed

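The deposited file holds whole-number counts per gene for 33000 genes and 32 libraries. According to the study's methods, the authors trimmed poly(A), aligned single-end reads to mm10 with STAR 2.4 and counted them per GENCODE gene with featureCounts, and strand use was not stated. No per-sample column was left unmatched. CPM values and everything below were computed here. No molecular identifiers were used, so PCR reads are not independent molecules. The 48 pairs of replicate libraries all differed by more than sampling noise.

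Genotypes were compared within each input, 4 libraries against 4, in edgeR 4.0.16 (R 4.3.3) with TMM, filterByExpr and the quasi-likelihood test, without covariates. A gene was called at a Benjamini-Hochberg adjusted p under 0.05 over all tested genes. The interaction and input effects were fitted on the 16 libraries of 50 ng and a single lower input. Single levels and the ratio were compared by two-sided exact permutation tests. How many animals these libraries came from is not given in the sources used here. The study names fewer mice than 4 per genotype for another of its comparisons, so replicates may share an animal, and p-values would then measure partly technical spread and be too small. Alternatives were DESeq2 1.42.0, limma 3.58.1 with quality weights, RLE size factors, no filter, the replicate number as a block, thinning, summing over inputs and leaving out replicates. Leaving out each summed library, leaving out each library for the related lists and the count over all pairs of genes were chosen after seeing the data. Scripts were tested on simulated data.

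The members, lists and tests were chosen with earlier results of these data known. From each list the genes called at 50 or 10 ng were named, at most 4 by the size of the log2 fold change at 10 ng, and where none was called the 2 with the highest mean CPM at 50 ng. Neutrophil and lymphocyte markers, which were near 0, are given as sums, and a few genes that the rule names are not reported here. Coordinates are from GENCODE vM21 on GRCm38, matched by gene identifier, and promoters are from RefSeq.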

Additional observations from a re-analysis of the deposited data

Results flagged for a closer look

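Of 72 groups of 4 libraries (9 genes, 2 genotypes and 4 inputs), 8 held a library far from the rest by Dixon's test, where chance gives about 1 in 20. Of the 8, 3 concern the upper inputs. P2ry12 at 10 ng was 86.1 CPM in GFAP-IL6 replicate 3 and 44.2 to 49.96 CPM in the others. Csf1r at 50 ng was 32.7 CPM in GFAP-IL6 replicate 2 and 59.3 to 62.9 CPM in the others. Selplg at 50 ng was 18.3 CPM in GFAP-IL6 replicate 4 and 44.3 to 46.6 CPM in the others. At 1 ng, WT replicate 1 stood apart for Tmem119 (39.3 CPM, others 13.6 to 15.1) and Gpr34 (55.6 CPM, others 7.36 to 15.3), and GFAP-IL6 replicate 3 for Csf1r (68.0 CPM, others 20.0 to 26.7). At 0.5 ng, GFAP-IL6 replicate 1 stood apart for Gpr34 (66.6 CPM, others 2.20 to 10.2) and replicate 2 for Aif1 (199.99 CPM, others 46.8 to 66.5).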

How the results depend on the processing

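At 50 ng 1 of the 9 genes, Aif1, was called by DESeq2, with no filter on low counts, with the replicate number as a block (adjusted p = 0.0234) and with libraries summed over inputs, and 0 to 2 were called on leaving out a replicate, the 2 being Aif1 and Fcrls without GFAP-IL6 replicate 4. At 10 ng DESeq2 called 2, thinning to the lowest total 0, and leaving out a replicate 0 to 1. The sum over inputs called 1, Aif1, where 50, 1 and 0.5 ng alone called 0 with the main settings. The difference in the log2 ratio of P2ry12 to Csf1r ran from -0.97 to -0.49 at 50 ng and from -1.02 to -0.73 at 10 ng over the omissions. Leaving out the 1 overlapping library (GFAP-IL6 replicate 2 at 50 ng, replicate 3 at 10 ng) separates the groups by construction, so no test was read from it. Leaving out each library in turn, which for the lists was chosen after seeing the data except for GFAP-IL6 replicate 4, called 3 to 12 pan-myeloid genes at 50 ng, 0 to 2 other homeostatic genes, 0 to 4 activated microglia genes and 0 to 1 monocyte markers, and at 10 ng 0 to 1 ligands and regulators. Without GFAP-IL6 replicate 4 at 50 ng 78 of all genes were called, against 11 to 23 on the other omissions and 33 with all libraries. Under the block 1 other homeostatic gene was called at 10 ng (Lair1), and DESeq2 called 1 activated microglia gene (Cst7) and 1 regulator (Tgfbr2) at 50 ng. The remaining 301 comparisons of counts and ratios kept their side of the threshold, or stayed within 1.5 times the main count.

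Some estimates of the 9 genes changed sign, at 1 and 0.5 ng also ones well away from 0. With the main settings Aif1 at 1 ng was 0.43 and Gpr34 at 0.5 ng 0.42. Under the replicate block P2ry12 at 1 ng was -0.19, and Gpr34 was -0.035 at 50 ng and -0.88 at 0.5 ng. After thinning Siglech at 50 ng was 0.020 and Aif1 at 1 ng -0.48. Leaving out a replicate moved P2ry12 over -0.32 to 0.012 at 50 ng, -0.34 to 0.039 at 10 ng, -0.41 to 0.38 at 1 ng and -1.20 to 0.14 at 0.5 ng. It moved Gpr34 over -0.080 to 0.40 at 50 ng, -0.0089 to 1.34 at 1 ng and -1.63 to 0.80 at 0.5 ng, Siglech over -0.15 to 0.035 at 50 ng and -0.054 to 0.27 at 10 ng, and Selplg over -0.015 to 0.36 at 50 ng and -0.12 to 0.23 at 1 ng. At 1 ng Tmem119 ran over -0.54 to 0.31 and Csf1r over -0.60 to 0.14.
The cause of these changes was not tested. Same-numbered WT and GFAP-IL6 libraries deviated together with correlations of 0.0469 to 0.240 at 50 ng and 0.0360 to 0.162 at 10 ng. Each WT library correlated best with the GFAP-IL6 library of its own number at both, a hint from the data. The same was seen for 4 of 4 WT libraries at 1 ng (0.0105 to 0.0505) and 1 of 4 at 0.5 ng. Not every pair was over 0.1 and the labels give the number no meaning, so the number was not taken to pair the samples. Depth also followed the number, with replicate 2 the shallowest and replicate 4 the deepest library of each genotype at every input. At 50 ng, replicates 2 and 4 held 1329425 and 7538356 counts in WT and 1071895 and 5579755 in GFAP-IL6. The part of depth in the correlations of same-numbered libraries was not tested. Within a genotype, same-numbered libraries of 50 and 10 ng had correlations of 0.0930 to 0.265 in WT and 0.0510 to 0.560 in GFAP-IL6, which bears on the fits across inputs. With the block, 136, 206 and 192 genes were called for the input effect at 10, 1 and 0.5 ng, against 0, 136 and 291 without it, and 0 of the 9 either way. The block changed no other call among the 9 genes. A member had as few as 15 counts in a library at 10 ng, 1 at 1 ng and 0 at 0.5 ng, and the parts of depth and replicate spread in the wider intervals were not tested apart.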
